A study of Mus musculus with 7 samples.

Results

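The genes described here encode the enzymes of cholesterol synthesis and the proteins that control their transcription through SREBP, measured in carotid artery samples from mice. They were chosen by name from a list of 28 genes, of which 26 were measured, among 12713 genes with a probe set annotated to 1 symbol that passed a filter on low signal. The measurements came from 7 Affymetrix mouse genome arrays, on which a gene is read by a probe set, a group of short probes for 1 transcript. Every array held RNA of offspring that were ApoE-/+, with 1 working and 1 null allele of the gene for apolipoprotein E. On 3 arrays the mother was wild type and normocholesterolemic and the father ApoE-/-. On the other 4 arrays the mother was ApoE-/- and hypercholesterolemic and the father wild type. Age, sex, diet and litter are not in the labels, nor is it stated that the arrays stand for different animals, so p-values describe only how these samples scatter, which may be technical. Both parents differed between the crosses, and effects of either parent cannot be told apart. The mothers are called dams below, and arrays are named by dam genotype and number.

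Cells build cholesterol from acetyl-CoA by way of mevalonate and isoprenoid units, which are joined to squalene, closed to lanosterol and then trimmed and reduced to cholesterol. SREBP2, encoded by Srebf2, is a transcription factor held in the endoplasmic reticulum as a precursor. When sterols are scarce, the escort protein SCAP carries it to the Golgi, where the proteases S1P and S2P, encoded by Mbtps1 and Mbtps2, release the active part. It then enters the nucleus and switches on the genes of the pathway. When sterols are plentiful, INSIG proteins hold SCAP back. In cells of the artery, uptake of lipoproteins and synthesis are balanced in this way, and adipocytes and myelinating cells also run the pathway.

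No gene of the pathway passed the test between the crosses. With limma, an adjusted p under 0.05 was reached by 0 of the 26 genes, beside 1 of 27027 probe sets in the whole table (0.0037%), which is 0.00787% of genes. At an unadjusted p under 0.05 there were 4 of 26, against 8.65% of all genes, with 2 above (background 4.43%) and 2 below (4.22%). Over the other settings and with single arrays left out, the count was lowest without ApoE-null dam 3 (2) and highest with quantile normalization (5). The share of all genes in those fits was not taken. The groups did not overlap for 6 of 26 (23.1%), against 8.58% of all genes. These 6 were divided evenly, with 3 above (4.34% of all genes) and 3 below (4.24%) in the offspring of an ApoE-null dam. Log2 fold changes, given throughout as ApoE-null dam minus wild-type dam on the log2(signal + 2) scale, were positive for 13 genes and negative for 13. Their median was -0.02, and that of all genes -0.01. The absolute log2 fold change was under 0.5 for 25 of the 26, or 96.2%, where it was 89.9% for all genes. The 95% intervals lay within -1 and 1 for 24 of the 26. The exceptions were Mvd, whose interval reached -1.02, and Cyp51, whose interval reached 1.23.

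**Figure D1:**
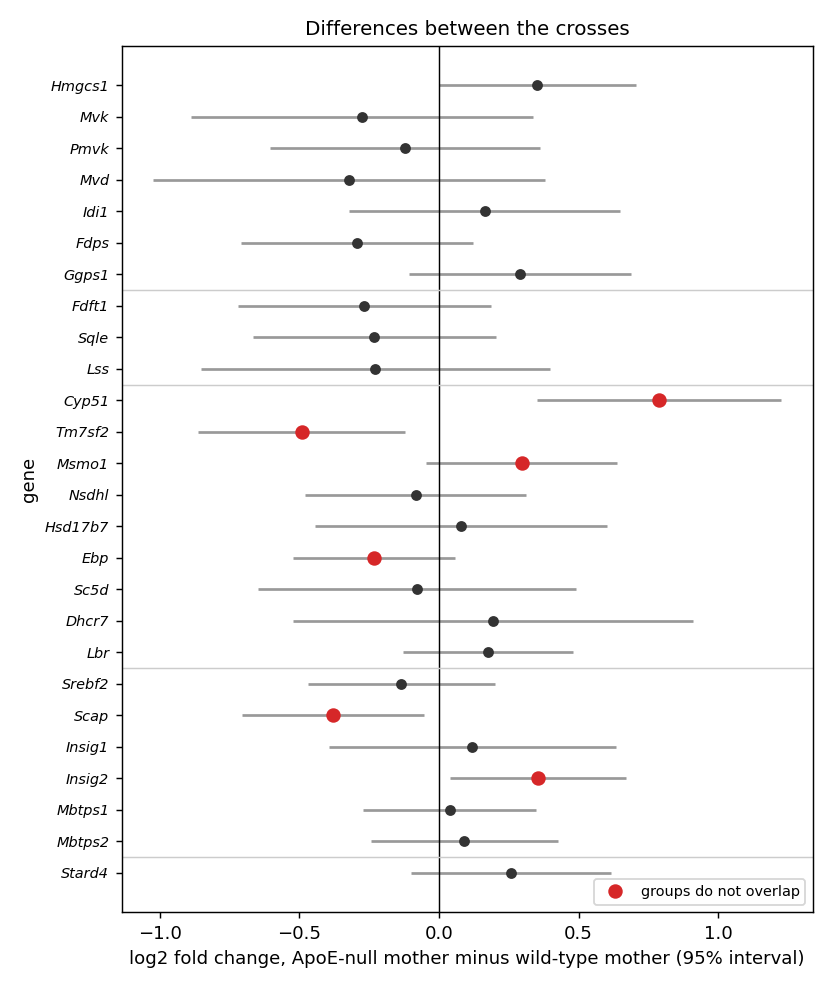
Log2 fold change between the crosses for the 26 measured genes (x axis), with the 95% interval of the limma fit as bars and the genes in pathway order from top to bottom (y axis). Red points mark the 6 genes whose groups do not overlap, and the points lie on both sides of 0 with a median of -0.02.

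The regulatory sequence of a few members is shown first, because SREBP acts at such sequences. Hmgcs1 was taken for its sterol element, and Cyp51, Tm7sf2 and Insig2 as examples, above and below, of the 6 genes whose groups did not overlap. RefSeq promoter windows on GRCm38.p6 were found for 24 of the 28 genes, and the 250 bases before each transcription start were searched on both strands. CCAAT, the letters bound by the factor NF-Y that acts together with SREBP at many sterol genes, was found for 20 of the 24 (83.3%). The same letters were found for 39.6% of the 10243 measured genes with a window. A stricter form of the sterol element, TCACNCCAC, was found for Hmgcs1 alone (1 of 24, or 4.17%), against 1.26% of the measured genes. The looser CACNCCAC, which lies within it, was found for Acat2, Hmgcs1 and Insig1 (3 of 24, or 12.5%), against 6.90% of the measured genes. Genes with several starts were counted if any window held the letters, and in Hmgcs1 the motifs do not overlap. A match describes the letters only. The stretches that end at the base before the start of Hmgcs1, Cyp51, Tm7sf2 and Insig2 are printed 5′ to 3′ on the strand of the gene, with both motifs in capitals (CCAAT reads as ATTGG where it lies on the other strand).
Hmgcs1, chr13:119690201-119690350, plus strand: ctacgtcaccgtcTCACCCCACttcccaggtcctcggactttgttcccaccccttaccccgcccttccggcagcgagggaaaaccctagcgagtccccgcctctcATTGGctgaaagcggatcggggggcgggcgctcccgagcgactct
Cyp51, chr5:4104698-4104817, minus strand: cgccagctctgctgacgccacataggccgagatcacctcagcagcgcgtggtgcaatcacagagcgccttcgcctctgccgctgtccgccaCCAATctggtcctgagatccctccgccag
Tm7sf2, chr19:6067851-6067970, minus strand: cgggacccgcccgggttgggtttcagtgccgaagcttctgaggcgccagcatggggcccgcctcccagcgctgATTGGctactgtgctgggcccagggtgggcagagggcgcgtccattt
Insig2, chr1:121332590-121332739, minus strand, the window with the letters among 3 for this gene: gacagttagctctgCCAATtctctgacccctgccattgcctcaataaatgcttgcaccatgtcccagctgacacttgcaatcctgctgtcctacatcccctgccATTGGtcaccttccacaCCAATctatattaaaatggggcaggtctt
The Hmgcs1 stretch holds the stricter form of the sterol element starting 137 bases before the start and 1 CCAAT. Those of Cyp51 and Tm7sf2 hold 1 CCAAT each. Sterol elements with other letters were not searched for, so a stretch without a marked element may still hold such an element. Among the printed genes the signals went both ways between the crosses, as given below. The members without CCAAT in these windows were Acat2, Scap, Mbtps1 and Mbtps2.

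Some arrays stood apart in what they contained. The array of wild-type dam 2 had a summed signal over 8 skeletal muscle markers of 2296, where the other arrays had 143.0 to 243.2. It also had the lowest share of probe sets above the bacterial control probe sets (61.9%, others 64.0% to 74.7%). Its ratio of 3 prime to 5 prime Actb signal, which increases as RNA is shortened, was 6.71, with 2.17 to 5.23 on the others. Its signal for Xist, a noncoding RNA of the inactive X chromosome, was 41.2 where the others had 5174 to 5931. The array of wild-type dam 3 had the lowest brown adipocyte sum (2203 over 6 markers, others 5696 to 12255). Smooth muscle markers were high throughout, at 23810 to 31392 with a wild-type dam and 24570 to 30770 with an ApoE-null dam over 6 markers. Endothelial markers summed to 2842 to 3811 and 3060 to 4383. Markers of fat, nerve and muscle were thus measured in samples labelled as carotid artery, and in bulk RNA fewer cells of a type and less RNA per cell cannot be told apart.

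The first enzymes of the pathway make isoprenoid units, and 3 of the 7 measured had positive and 4 negative log2 fold changes, from -0.32 to 0.35. Hmgcs1, which makes HMG-CoA and carries the sterol element shown above, had signals of 2607.6, 3573.7 and 2148.7 with a wild-type dam. With an ApoE-null dam they were 3491.1, 3629.2, 3254.0 and 3510.4. The 4 arrays of the latter group lay close together, and wild-type dam 2 lay among them, so the groups overlapped. The means were 2777 ± 727 (SD, n = 3) and 3471 ± 157 (SD, n = 4), with a log2 fold change of 0.35 (SE 0.16, 95% interval -0.0006 to 0.71; limma, adjusted p = 0.607). It was 0.55 without wild-type dam 2 and 0.18 without wild-type dam 3. The other 4 probe sets of Hmgcs1 gave 0.18 to 0.35.

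Ggps1, which makes the geranylgeranyl diphosphate used to anchor small GTPases in membranes, had signals of 262.0, 233.1 and 314.6 with a wild-type dam. With an ApoE-null dam they were 346.7, 302.3, 405.1 and 272.3. Only 2 of the 4 lay above every wild-type dam array. The log2 fold change was 0.29 (SE 0.18; limma, adjusted p = 0.692), and the 3 weaker probe sets of this gene gave -0.07 to 0.34, the last without overlap.

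Mvk, Pmvk and Mvd, which phosphorylate mevalonate and convert it to isopentenyl diphosphate, had log2 fold changes of -0.27, -0.12 and -0.32. Idi1, the isomerase that follows, had 0.16, and Fdps, which joins the units to farnesyl diphosphate, -0.29. None of the 5 passed (limma, adjusted p = 0.705 to 0.903), and the groups overlapped for each. Fdps was 143.9, 142.1 and 101.8 with a wild-type dam and 96.8, 115.0, 97.0 and 107.6 with an ApoE-null dam, so wild-type dam 3 lay within the range of the other group. For Mvk the weaker probe set pointed the other way, at 0.40. Its signal was 16.8 on wild-type dam 2, where the highest bacterial probe set was at 22.0. Mvd was weak, at 20.9 on ApoE-null dam 3, where the highest bacterial probe set was at 20.4. Without that array its log2 fold change was -0.09. The second probe set of Mvd gave -0.70 with overlap. Acat2, which condenses acetyl-CoA at the head of the pathway, had no probe set annotated to that symbol alone, so its signal was not analysed here.

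The 3 genes from farnesyl diphosphate to the sterol ring had negative values for the probe set with the highest signal. Fdft1, the squalene synthase, had a log2 fold change of -0.27, Sqle, the oxygen-dependent epoxidase, -0.23, and Lss, the cyclase that makes lanosterol, -0.23 (limma, adjusted p = 0.748 to 0.850). The sizes depended on the probe set and on single arrays. A second probe set of Fdft1, not marked as shared with other transcripts, gave -0.05, and that of Lss -0.25. With single arrays left out, Fdft1 was at -0.42 (without wild-type dam 3) to -0.11 (without wild-type dam 2). Sqle was at -0.49 (without wild-type dam 3) to -0.08 (without wild-type dam 1), and Lss turned to 0.0927 without wild-type dam 2. Sqle had 411.3, 390.0 and 233.8 with a wild-type dam against 292.7, 285.9, 286.2 and 275.1. The array of wild-type dam 3 was thus the lowest and the other 2 of its group were the highest, with the 4 ApoE-null dam arrays within a narrow band between them.

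Of the 9 genes from lanosterol to cholesterol, 4 had groups that did not overlap (44.4%, against 8.58% of all genes), with signals above in 2 and below in 2. Cyp51, the demethylase that acts on lanosterol, had signals of 137.8, 108.5 and 80.3 with a wild-type dam. With an ApoE-null dam they were 165.8, 195.5, 192.5 and 187.7, each above every array of the other cross. The means were 109 ± 28.8 (SD, n = 3) and 185 ± 13.4 (SD, n = 4). The fitted log2 fold change of 0.79 (SE 0.20), or 1.73-fold on the signal + 2 scale, with an interval of 0.35 to 1.23, was the largest in size among the 26 genes, and Cyp51 ranked 63 by p among the 12713 genes. Over the whole table it missed the threshold (limma, adjusted p = 0.459). A weaker probe set of Cyp51 gave 0.22 with overlapping groups, at 58.8, 71.7 and 44.4 against 43.7, 78.8, 84.0 and 69.3, and a further one lay below the filter.

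Tm7sf2 encodes a sterol reductase that acts on the product of Cyp51, and its signals lay in the opposite direction. They were 189.0, 183.8 and 157.5 with a wild-type dam and 135.8, 112.4, 137.4 and 115.6 with an ApoE-null dam, without overlap. The means were 177 ± 16.9 (SD, n = 3) and 125 ± 13.1 (SD, n = 4). The log2 fold change was -0.49 (SE 0.17, 95% interval -0.86 to -0.12; limma, adjusted p = 0.540). Lbr, a protein of the inner nuclear membrane with the same reductase activity, had 492.6, 484.4 and 424.6 against 476.4, 561.8, 534.5 and 539.8. Here ApoE-null dam 1 lay within the wild-type dam range, and the log2 fold change was 0.18 (95% interval -0.13 to 0.48; limma, adjusted p = 0.752). The difference between these reductases was not tested.

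Msmo1, the oxidase of the C4 methyl groups, had 247.6, 244.3 and 199.8 with a wild-type dam. With an ApoE-null dam it had 258.0, 286.0, 312.7 and 275.1, above every array of the other cross by a narrow margin. Its log2 fold change was 0.30 (SE 0.16; limma, adjusted p = 0.648). Ebp, the isomerase that moves a ring double bond, had 1352.3, 1391.6 and 1399.6 against 1269.0, 1051.3, 1086.0 and 1319.5, with all 4 arrays below the other cross. Its log2 fold change was -0.23 (SE 0.13; limma, adjusted p = 0.669). Second probe sets of Msmo1 and Scap lay below the filter. Cyp51 and Msmo1 thus lay above, and Tm7sf2 and Ebp below, within one stretch of the pathway.

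For the other enzymes of this stretch the groups overlapped. Nsdhl and Hsd17b7, which complete the removal of the C4 methyl groups, had log2 fold changes of -0.08 and 0.08. Sc5d, the desaturase near the end, had -0.08, and Dhcr7, the last reductase, 0.19 (limma, adjusted p = 0.896 to 0.951 for the 4). Dhcr7 had the widest interval among the 9 genes from lanosterol to cholesterol, from -0.52 to 0.91. Its signals were 88.3, 101.1 and 40 against 112.2, 58.8, 92.1 and 72.8. For Sc5d the 3 probe sets disagreed in sign, at -0.08, -0.31 and 0.39. The last was weak, at 20.1 on wild-type dam 2, where the highest bacterial probe set was at 22.0.

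**Figure D2:**
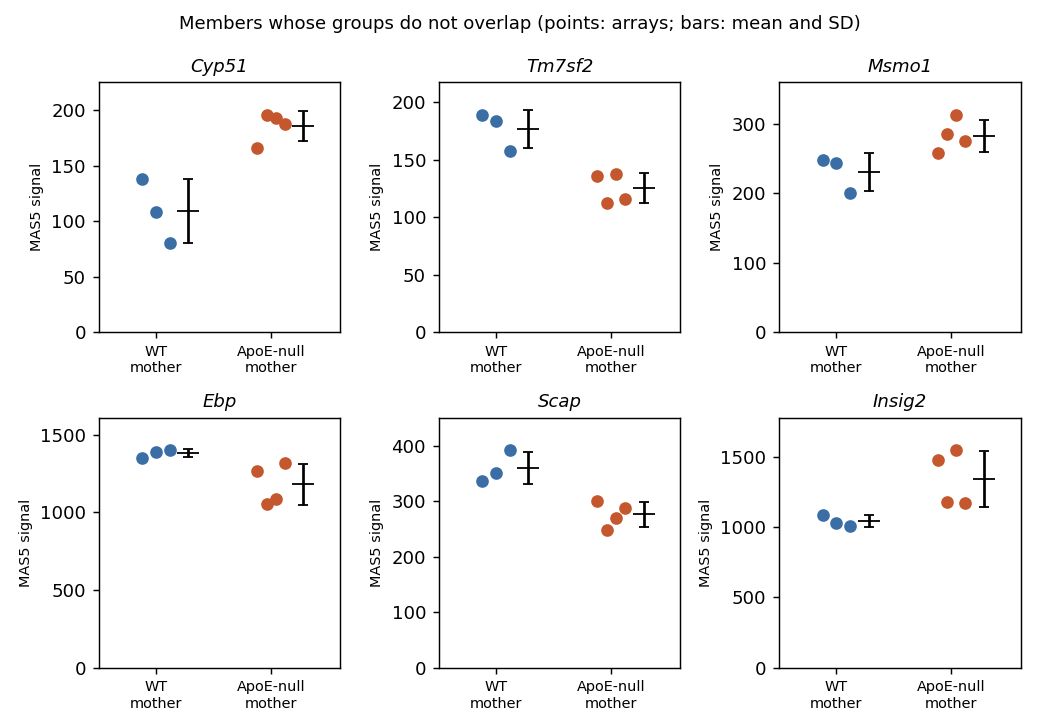
MAS5 signal (y axis, linear, from 0) on each array for the 6 genes whose groups do not overlap, with wild-type dam arrays in blue and ApoE-null dam arrays in orange; black bars give the mean and SD. Cyp51, Msmo1 and Insig2 lie above and Tm7sf2, Ebp and Scap below in the ApoE-null dam group, and the gaps between the groups are small for Msmo1 and Ebp.

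Among the genes of SREBP control, Srebf2 itself had nearly the same signal in both crosses. It was 210.2, 203.1 and 223.8 with a wild-type dam and 205.0, 191.1, 172.8 and 205.8 with an ApoE-null dam, with overlap. The log2 fold change was -0.13 (95% interval -0.47 to 0.20; limma, adjusted p = 0.836), and the weaker probe set gave -0.20. The signal of an mRNA does not show how much of the protein was processed.

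Scap, the escort of SREBP, had 337.2, 350.2 and 391.9 with a wild-type dam. With an ApoE-null dam it had 299.8, 247.5, 269.7 and 288.1, all below the other cross. The means were 360 ± 28.6 (SD, n = 3) and 276 ± 22.8 (SD, n = 4). The log2 fold change was -0.38 (SE 0.15, 95% interval -0.70 to -0.05; limma, adjusted p = 0.569).

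Insig2, the INSIG protein whose gene is not known for strong induction by SREBP, had 1087.7, 1026.9 and 1008.6 with a wild-type dam. With an ApoE-null dam it had 1476.8, 1175.5, 1544.1 and 1170.3, all above the other cross, with arrays 1 and 3 well above 2 and 4. The means were 1041 ± 41.4 (SD, n = 3) and 1342 ± 197 (SD, n = 4). The log2 fold change was 0.35 (SE 0.14, 95% interval 0.04 to 0.67; limma, adjusted p = 0.584). The other probe sets of Insig2 gave 0.20 and 0.16 with overlap.

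Insig1, which SREBP induces as part of a feedback loop, had 442.3, 691.1 and 311.1 against 469.6, 588.1, 467.7 and 469.8. The highest and the lowest value were both in the wild-type dam group, and 3 of the ApoE-null dam arrays were nearly equal. Its log2 fold change was 0.12 (95% interval -0.39 to 0.63; limma, adjusted p = 0.911). The proteases Mbtps1 and Mbtps2 had log2 fold changes of 0.04 and 0.09 (limma, adjusted p = 0.956 and 0.895), with intervals of -0.27 to 0.35 and -0.24 to 0.43.

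Stard4, which moves cholesterol between membranes and is itself induced by SREBP, had 252.9, 198.0 and 239.3 against 262.1, 241.4, 307.8 and 289.4. Only ApoE-null dam 2 lay within the other range. Its log2 fold change was 0.26 (SE 0.16; limma, adjusted p = 0.697). The weakest of the 3 probe sets of Stard4, at 40.4, 31.2 and 28 against 43.3, 94.6, 71.2 and 56.8, had 0.92 without overlap, and the remaining one 0.13. The signal of Soat1, which esterifies cholesterol for storage, was not analysed here for the same reason as that of Acat2.

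The mean over the enzymes varied more among the wild-type dam arrays than between the crosses. Genes with opposite differences, such as Cyp51 and Tm7sf2, partly cancel in this mean. The mean log2 deviation of the 19 measured enzymes from the average of the 7 arrays was 0.06, 0.29 and -0.32 on wild-type dam 1, 2 and 3. It was 0.13, -0.07, -0.06 and -0.02 on the ApoE-null dam arrays. The wild-type dam group thus held both the highest and the lowest array, and the ApoE-null dam arrays lay between them. Group means were 0.01 ± 0.31 (SD, n = 3) and -0.01 ± 0.09 (SD, n = 4).

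Wild-type dam 3 was the lowest of the 7 arrays for 13 of the 26 genes, or 50%, where it was the lowest for 15.4% of all genes. Wild-type dam 2 was the highest for 9 of the 26, or 34.6%, against 18.9% of all genes. These arrays were the highest and lowest for the mean of the same enzymes, so a count between them partly follows from their choice. Between them 17 of 19 enzymes were higher on wild-type dam 2, with a median ratio of 1.66. For all genes the share was 48.2% and the median ratio 0.987. Dhcr7, Sc5d, Hsd17b7 and Insig1 had the largest such ratios, at 2.53, 2.32, 2.27 and 2.22. Of the 6 genes of SREBP control only 2 were higher on wild-type dam 2, and their median ratio was 0.901. The median standard deviation of the log2 signal over the 26 genes was 0.29 among the wild-type dam arrays and 0.15 among the ApoE-null dam arrays. For all genes these medians were 0.25 and 0.23.

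**Figure D3:**
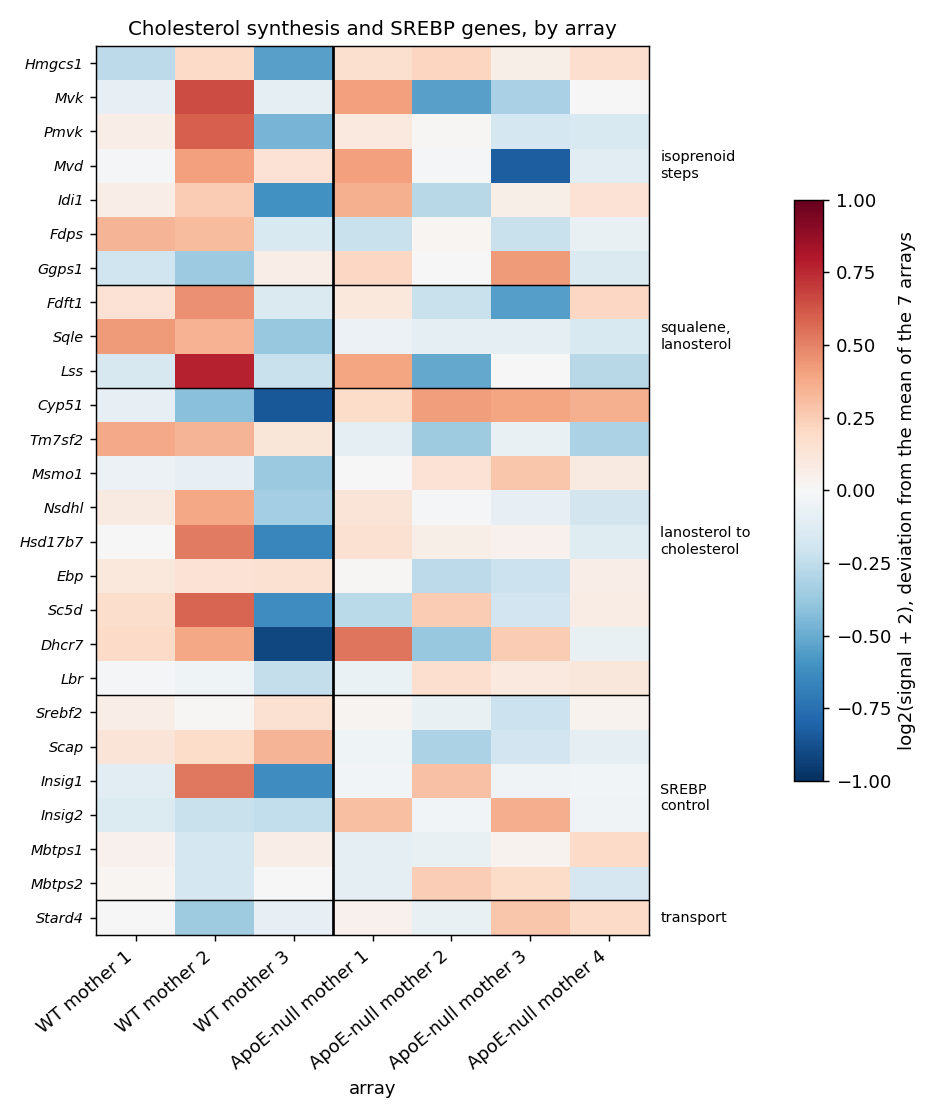
Deviation of log2(signal + 2) from the mean of the 7 arrays (colour, red high and blue low) for the 26 genes in pathway order (rows) on each array (columns), with a line between the crosses. Most enzymes are blue on wild-type dam 3, the lowest array for 13 of the 26 genes, and many are red on wild-type dam 2.

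Acly, Acss2 and the adipocyte marker lists took a similar order on the wild-type dam arrays. Acly and Acss2, which make cytosolic acetyl-CoA, had a mean log2 deviation of 0.01, 0.67 and -0.73 on wild-type dam 1, 2 and 3. Srebf1, which encodes the lipogenic SREBP1, took another order. Its signals on these arrays were 979.7, 1360.1 and 1107.6, lowest on wild-type dam 1. Brown adipocyte markers had -0.43, 0.56 and -1.84 there, and white adipocyte markers, 4 measured of 6, had 0.31, 0.51 and -0.68. On the ApoE-null dam arrays the order differed between these lists. Array 3 had the highest brown adipocyte value of that group, 0.82, and an enzyme value of -0.06. Summed brown adipocyte signals were 2203 to 10103 with a wild-type dam and 7762 to 12255 with an ApoE-null dam, and white adipocyte sums were 4727 to 9120 and 6249 to 7916. Schwann cell markers, 5 measured of 8, were at their highest sum on wild-type dam 3 (9105), with 5349 and 6162 on the rest of that group and 4117 to 6777 in the other. Pmp22, at 3286 to 4575, was the largest part of each sum. The mean log2 deviation of the 4 that passed the filter was 0.65, -0.17 and 1.45 with a wild-type dam. With an ApoE-null dam it was 0.53, -1.15, 0.28 and -1.58. The part of these tissues in the enzyme signals was not tested.

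**Figure D4:**
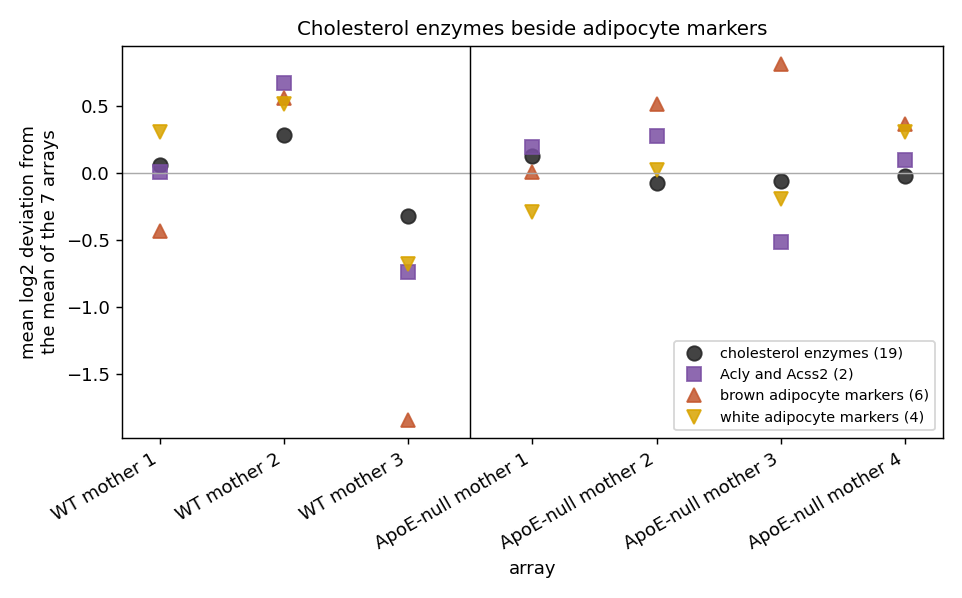
Mean log2 deviation from the average of the 7 arrays (y axis) for the 19 enzymes, for Acly with Acss2, and for brown (6) and white (4) adipocyte markers on each array (x axis). All 4 sets are at their lowest on wild-type dam 3, where the enzymes are at -0.32 and the brown adipocyte markers at -1.84.

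Among the marker lists, the summed signals of thymocyte and T cell markers did not overlap between the crosses. Their sum over 8 markers was 56.4 to 169.1 with a wild-type dam and 433.0 to 737.9 with an ApoE-null dam. Singly, 7 of these 8 markers did not overlap, against 8.58% of all genes. The list was chosen with earlier results of these data known, so the count is a description only. Rag1, Dntt, Cd3d, Cd3g and Ccr9 had wild-type dam means of 9.0 to 19.8, below the filter of 23.6. They passed it only through the arrays with an ApoE-null dam. Among the 7, Cd8b1 lay below the filter on low signal. Cd3d, Cd3g and Cd8b1 were at or under the bacterial probe sets on all 3 arrays with a wild-type dam. Single markers of other lists also did not overlap. Ucp1, the uncoupling protein of brown adipocytes, was above with an ApoE-null dam (420.1 to 2297 against 3147 to 5060), as was Slc4a1 of erythroid cells (34.8 to 41.0 against 48.7 to 82.9). Cnp of Schwann cells (909.2 to 2061 against 428.6 to 822.6) and Uchl1 of neurons (267.1 to 696.6 against 195.2 to 254.4) were below. These markers divide the arrays as Cyp51, Tm7sf2, Msmo1, Ebp, Scap and Insig2 do, and their part in the values of those genes was not tested. Erythroid markers, 2 measured of 4, summed to 276.7 to 636.1 and 492.0 to 1201. Neuron and glomus cell sums (7 markers) were 378.3 to 3002 and 324.4 to 993.1, and macrophage sums (5 markers) 4008 to 4614 and 4143 to 5336. Markers of thyroid and parathyroid, 3 measured of 5, summed to at most 75.9 with Pth below the bacterial probe sets on every array. Those of hepatocytes, 3 of 4, summed to at most 81.5 with Apoa1 below on every array. Steroidogenic cell markers (4) summed to at most 99.1.

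Other genes of sterol supply and control gave 0 calls as well. Of 20 listed, 13 were measured, with 5 positive and 8 negative log2 fold changes, a median of -0.06 and 1 of 13 at an unadjusted p under 0.05 (7.69%, against 8.65% of all genes). Acat1, the mitochondrial acetyl-CoA acetyltransferase, had 3043.1, 3896.8 and 3205.4 against 4018.4, 4028.5, 4310.1 and 3933.4, without overlap, and a log2 fold change of 0.28 (limma, adjusted p = 0.601). Rnf139, a ubiquitin ligase of the endoplasmic reticulum, had 0.44, Aacs, which activates acetoacetate for lipid synthesis, 0.42, and Srebf1, the gene of the lipogenic SREBP1, -0.28 (limma, adjusted p = 0.610, 0.641 and 0.706).

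The users of isoprenoid units, which attach them to proteins or build ubiquinone and dolichol, also gave 0 calls. Of 13 listed, 12 had a probe set and 11 passed the filter, with 5 positive and 6 negative values and a median of -0.09. At an unadjusted p under 0.05 in limma there were 0 of 11, against 8.65% of all genes. Zmpste24, the protease that trims prenylated lamin A, had a log2 fold change of -0.27. Fntb, a farnesyltransferase subunit, had -0.44, Rabggta, a subunit for prenylation of Rab proteins, -0.24, and Icmt, which methylates the prenylated end, -0.23 (limma, adjusted p = 0.665 to 0.835). The groups overlapped for each of the 11, where 8.58% of all genes had groups without overlap. A list of 11 is too short to tell 0 from these shares.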

How the data were processed

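The authors deposited MAS5 signal, an intensity on a linear scale, for every probe set of each array; GCOS is named in the submitters' processing notes, without a version. Each array's 2% trimmed mean was 200.0, and this scaling was kept. Per the labels' protocols, RNA was amplified in 2 cycles from an oligo-dT primer, which favours 3 prime ends. The probe set with the highest mean signal among those annotated to exactly 1 symbol represents a gene. Signals were transformed to log2(signal + 2), which understates changes of weak genes. The 64 control probe sets and those with a mean signal at or below the 40th percentile (23.6) were left out, leaving 27027; all 26 matched members were kept. limma 3.58.1 under R 4.3.3 (lmFit, eBayes with an intensity trend) compared the crosses without covariates; p-values were adjusted by Benjamini and Hochberg across the 27027 probe sets, and intervals are at 95%. Background was the highest of 27 bacterial probe sets on the same array. No probe set that represents a member lay at or below it on any array, though some weaker ones did. The fit was tested on simulated data. No 2 arrays were identical. The number of arrays limits the precision.

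Members, lists and markers were chosen with earlier results of these data known. By the rule for named genes, values on every array are given for members without overlap, those with the 8 smallest p, and Srebf2, Scap, Insig1 and Insig2, with up to 4 genes per further list; values on every array of Fdps, Sqle, Lbr, Dhcr7 and Stard4 were added after they were seen. Alternatives were other pseudocounts, filters, scalings and probe sets, no trend, and each array left out.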

Additional observations from a re-analysis of the deposited data

Results flagged for a closer look

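In the ApoE-null dam group, 1 array lay apart from the other 3 for 4 of the 51 signals examined, by the gap to its neighbour as a share of the group's range on the log2 scale, with a critical value of 0.829. Chance gives about 1 in 20 such groups. Insig1 was 588.1 on ApoE-null dam 2 and 467.7 to 469.8 on the others (share 0.981). Fntb was 22.1 on ApoE-null dam 2 and 54.3 to 58.5 on the others (share 0.922). Acss2 was 653.8 on ApoE-null dam 3 and 1310.2 to 1459.8 on the others (share 0.865). Erlin1, which takes part in the degradation of sterol-regulated proteins, was 461.3 on ApoE-null dam 1 and 767.5 to 851.0 on the others (share 0.831). Groups of 3 were not examined in this way.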

How the results depend on the processing

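No member was called under any of the 7 other settings of pseudocount, filter, scaling and trend, with any single array left out, or with the mean over a gene's probe sets or a probe set not marked as shared, and the lowest adjusted p of a member was 0.233 in limma. The 60th percentile filter left out 1 member, Mvd. Of 381 alternative values of members, 370 kept their sign. The 11 that turned belonged to 10 members, none of them among the 6 without overlap. Mvk was at 0.0649 with the mean over its kept probe sets. With single arrays left out, Pmvk was at -0.39 to 0.14, Lss at -0.41 to 0.0927, Nsdhl at -0.28 to 0.0871 and Sc5d at -0.41 to 0.19, turning without wild-type dam 2. Idi1 was at -0.09 to 0.34, Hsd17b7 at -0.23 to 0.36, Dhcr7 at -0.21 to 0.44 and Insig1 at -0.16 to 0.42, turning without wild-type dam 3. Mbtps1 was at -0.0381 to 0.0836, turning without wild-type dam 2 or ApoE-null dam 4. The members' median was -0.21 without wild-type dam 3 and 0.12 without wild-type dam 2. Over the whole table, 2 probe sets were called with quantile normalization, 0 without an intensity trend and 0 to 18 with single arrays left out, with 18 without wild-type dam 1, 4 without wild-type dam 3 and 0 without each other array. The cause of these shifts was not tested. No paired analysis was possible because the labels give the crosses no shared replicate numbers.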
